A study of Mus musculus with 235 samples.

Results

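The liver response of AKR/J mice to isoniazid was measured on 8 of the 235 arrays of the series. The 8 arrays were chosen by their titles: 4 AKR/J animals given isoniazid and 4 AKR/J animals given vehicle, 1 array per animal. All were female inbred AKR/J mice with no engineered allele named in the labels, 8 to 10 weeks old at the start. The treated mice received 1 dose of isoniazid a day by gavage, 100 mg/kg each, for 3 days, and the controls received sterile water in the same way. The left liver lobe was taken 24 hours after the last dose. The series holds 31 strains, of which the submitters coded 13 as developing steatosis under isoniazid and 18, AKR/J among them, as not. Other strains lost treated animals before the end, whereas all 4 treated AKR/J mice were analysed. The question put to these arrays was which liver genes changed with isoniazid in AKR/J, and where that change differed from the mean change of the other 30 strains.

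Isoniazid is a hydrazide used against tuberculosis, and liver injury is its best known side effect. The liver acetylates it through N-acetyltransferases, and hydrazine products of its breakdown can react with pyridoxal phosphate, the vitamin B6 cofactor of transaminases, decarboxylases and heme synthesis. Liver gene expression also follows the time of day through the circadian clock, the pulse pattern of growth hormone, which differs between the sexes, and the sterol and lipid content of the hepatocyte. AKR/J is an inbred strain known for spontaneous thymic lymphoma later in life.

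Values are log2 expression per probe set, so a difference of 1 is a 2-fold change, and 1 probe set, the one with the highest mean, stands for each of 18146 genes. Arrays carry no read counts, and their number limits the precision. All 8 arrays correlated best with the other AKR/J arrays among all strains, and hepatocyte markers were high throughout, with albumin (Alb) between 14.34 and 14.59. A two-sided exact permutation test between the 4 treated and 4 control arrays gave p = 0.343 for the 3′ to 5′ signal of Actb, 0.229 for Tfrc, 0.257 for Pcx and 0.457 for the SD of log2 values over an array, and 0.457 for each after adjustment over the 4. The smallest p this design allows is 0.0286. The AKR/J arrays were scanned on 5 dates, and only 1 of these held both groups, 2 vehicle and 2 isoniazid arrays.

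Both vehicle animals 1 and 2 stood apart. The array of vehicle animal 1 was 1 of 21 arrays in the series with a narrow spread, an SD of 2.16 against 2.23 or more in the arrays without it. Vehicle animal 2 held 76 genes at least 4-fold above all 7 other AKR/J arrays, and 70 of these were also above every array of the other strains. Among the 227 arrays of the other strains, the median number of such genes, counted against the other arrays of the same strain, was 0 and the highest 35. They are named here because of their values. Rag1, the recombinase of developing lymphocytes, read 9.87 in vehicle animal 2 and at most 2.47 in the other 7 animals. Gzma, a granzyme of cytotoxic lymphocytes, read 11.48 against at most 4.90, and Cd3g, a chain of the T cell receptor complex, 8.14 against at most 3.25. Myb, a transcription factor of blood progenitors, read 8.14 against at most 2.97, and the proliferation marker Mki67 7.90 against at most 3.17.

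The marker lists moved in the same animal. For T and NK cells the mean level of 12 markers was 5.88 in vehicle animal 2, 3.60 to 3.82 in the other vehicle animals and 3.45 to 3.76 under isoniazid. Of the 12, 7 were highest in vehicle animal 2, 6 of them by at least 4-fold. Cd8b1 was 1 of the 6, at 6.52 against at most 3.51 in the other AKR/J animals. Its partner chain Cd8a (3.73) and Cd4 (3.28) were not raised in vehicle animal 2. For macrophages and Kupffer cells, all 16 markers were highest in that animal, with a mean of 9.10 against 7.28 to 7.62 in the other vehicle animals and 6.89 to 7.30 under isoniazid. For the cell cycle, 16 of 22 genes were highest there, with a mean of 6.28 against 4.23 to 4.42 in the other vehicle animals and 4.29 to 4.40 under isoniazid. In whole tissue, more cells of a type and more RNA per cell cannot be told apart, and the part of these genes in other results was not tested. Counts over all genes are therefore given with and without vehicle animal 2, and those of gene lists in part.

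**Figure D1:**
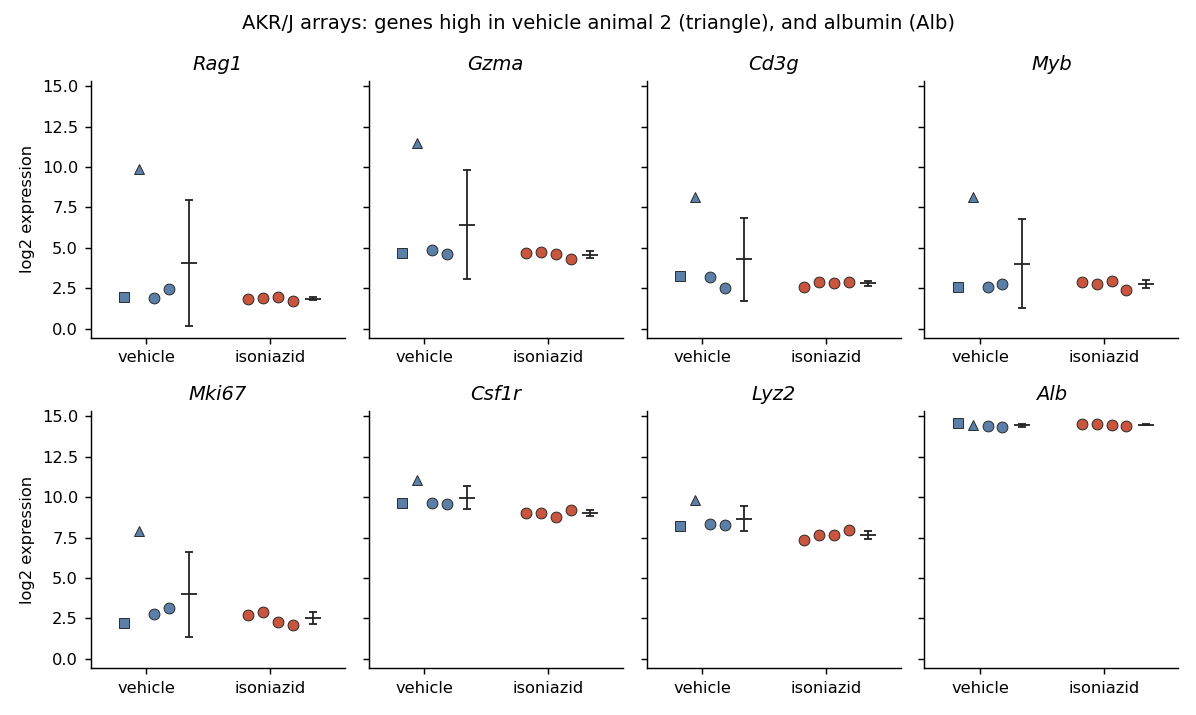
Log2 expression (vertical axis, common to all panels) of 7 genes high in AKR/J vehicle animal 2 and of albumin, by treatment. Each point is 1 animal, the triangle is vehicle animal 2 and the square vehicle animal 1, and the bar is the mean with its SD (n = 4). Rag1 reads 9.87 in vehicle animal 2 and 2.47 or less elsewhere, while albumin (Alb) lies between 14.34 and 14.59 in all 8 animals.

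Isoniazid changed 494 of 18146 genes in AKR/J liver, 2.72% of those tested (limma, Benjamini-Hochberg adjusted p under 0.05). Of these, 344 rose (1.9%) and 150 fell (0.827%), 41 and 38 of them by at least 2-fold. Drug and steroid metabolising enzymes, clock-controlled genes and genes of amino acid and sterol metabolism were among those that rose, and Cyp3a16, Socs2 and Cyp2c70 were among those that fell. In 350 of the 494 the treated and control animals did not overlap, against 7.21% of all genes, and 281 of these rose (5.59% of all genes were higher without overlap) and 69 fell (1.63% were lower). Across the 31 strains AKR/J ranked 7 by the number of genes called, between PWK/PhJ with 2747 and A/J and PL/J with 0 each, though 9 of the strains had fewer than 4 treated animals.

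The falls rested on vehicle animal 2 to a large extent. In 112 of the 150 genes that fell it was the highest of the 8 animals, as it was in 3175 of all 18146 genes. Without it, 305 genes were called (1.68%), 263 higher (1.45%) and 42 lower (0.231%), and these included 223 of the 344 rises but 31 of the 150 falls. Without vehicle animal 1, 331 were called, 133 higher and 198 lower, with 127 of the rises and 116 of the falls retained. The count was 194, 253 and 278 without isoniazid animals 2, 3 and 4. It was 121 (91 higher, 30 lower) without vehicle animal 2 and the narrow-spread arrays together, 103 of them called the same way with all arrays. Within the scan date that held both groups, 262 genes were called (46 higher, 216 lower) from 2 animals a group, vehicle animal 2 among them, and with scan date as a term 577 were called. A fit to the 8 AKR/J arrays alone, which cannot borrow the spread of the other groups, called 14 genes, and 1827 had an unadjusted p under 0.05. With all arrays and in each of the 8 fits that left out 1 animal, 86 genes were called, 78 higher and 8 lower. A gene is called stable below when it is 1 of those 86. The word does not cover the fit without vehicle animal 2 and the narrow-spread arrays together. Vehicle animal 1 is 1 of these arrays, so only vehicle animals 3 and 4 remained as AKR/J controls in that fit. How far its lost calls come from fewer controls was not tested. Of the genes called stable below, Cyp2b10, Aldh1a7, Thrsp, Nrg4, Hpd, Atp5g1, Cycs and Prxl2b were not called in that fit.

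**Figure D2:**
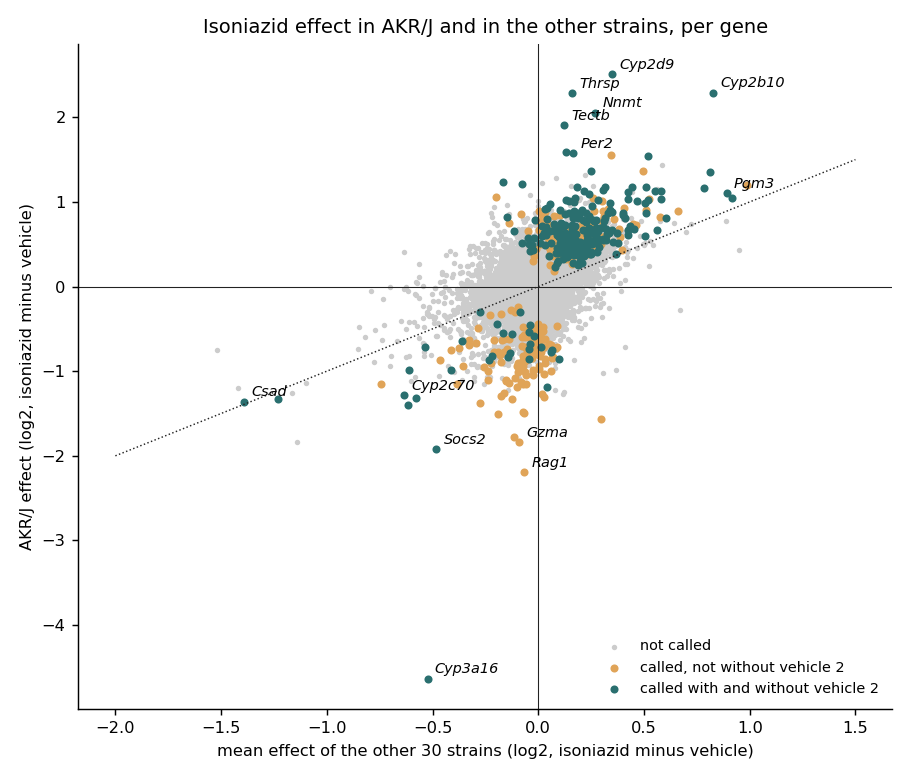
AKR/J effect (vertical axis) against the mean effect of the other 30 strains (horizontal axis), both as log2 isoniazid minus vehicle, 1 point per gene. Green points are called with and without vehicle animal 2, orange points only with it, grey points are not called, and the dotted line marks equal effects. Cyp2d9 and Cyp3a16 lie farthest from 0 in AKR/J, and Rag1 and Gzma are orange.

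The largest changes lay in cytochrome P450 genes whose liver levels differ between the sexes or within the Cyp3a family. In the order vehicle animals 1 to 4 and then isoniazid animals 1 to 4, which is kept below, Cyp2d9 read 8.30, 9.54, 9.87 and 8.69, then 11.32, 11.88, 11.82 and 11.40. Cyp2d9, a steroid hydroxylase known as male-predominant, was higher in every treated animal than in any control and rose by 2.51 ± 0.39 (log2, SE, n = 4 and 4), or 5.69-fold (limma adjusted p = 7.24e-06). It was stable, and its vehicle level in AKR/J was 1.90 below the mean of the other strains (adjusted p in limma 2.95e-08). Cyp3a16, a cytochrome P450 of the mouse Cyp3a family, read 9.53, 7.98, 8.12 and 8.91, then 5.44, 3.18, 3.07 and 4.32. The groups were far apart, and Cyp3a16 fell by 4.63 on the log2 scale (SE 0.816, limma adjusted p = 0.00014), a 24.8-fold change from a vehicle level 3.98 above that of the other strains. Its values in isoniazid animals 2 and 3 lay below the median of their arrays, so the size of this fall is uncertain. Both genes have close paralogs, and how far each probe set separates them was not tested.

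Growth hormone and sex-biased genes as a list did not move one way. Of 25 measured, 2 rose and 1 fell, and the median effect was -0.073 against 0.0079 over all genes. Over all genes 1.9% rose and 0.827% fell, and these shares apply to each list count below. Slco1a1, an organic anion transporter that is male-predominant in mouse liver, read 4.83, 5.04, 6.57 and 5.60, then 7.36, 6.77, 7.29 and 6.86, without overlap. It rose by 1.56 ± 0.39 (limma adjusted p = 0.0108), but was not called without vehicle animal 1 (0.0756) or 2 (0.0595). Socs2, an inhibitor of growth hormone signalling that the hormone itself induces, read 9.60, 9.11, 9.35 and 9.12, then 7.31, 7.13, 7.81 and 7.24. All treated animals lay below all controls, and Socs2 fell by 1.92 on the log2 scale (SE 0.496, limma adjusted p = 0.0133), except that without isoniazid animal 2 it was not called (0.0609). The effects of its 6 probe sets ran from -2.02 to 0.074. Without vehicle animal 1, 1 of the list rose. Elovl3, a fatty acid elongase of the list named after its values were seen, showed a difference of 1.19 with an adjusted p of 0.0895 in limma, and Stat5a, the growth hormone transcription factor, one of -0.39 (0.0849).

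**Figure D3:**
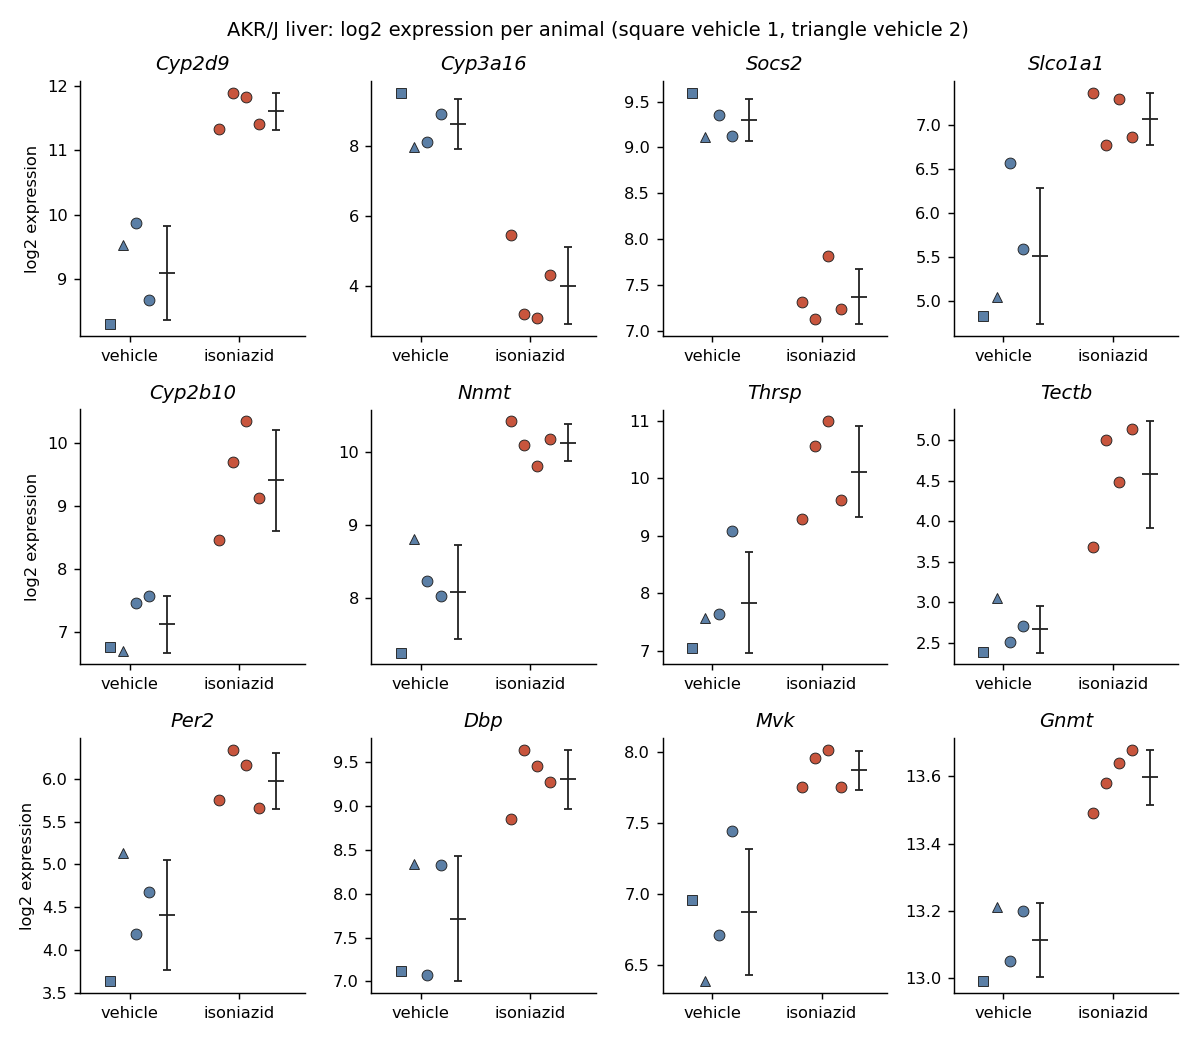
Log2 expression of 12 genes in AKR/J liver (vertical axes differ between panels and do not start at 0) by treatment. Each point is 1 animal, the square is vehicle animal 1 and the triangle vehicle animal 2, and the bar is the mean with its SD (n = 4). In all 12 genes the 4 treated animals lie on one side of the 4 controls.

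Genes of drug metabolism rose in part. Cyp2b10, the usual marker of the receptor CAR, read 6.76, 6.69, 7.46 and 7.56, then 8.46, 9.70, 10.35 and 9.13. Every treated animal was above every control, with a rise of 2.29 ± 0.49 (limma adjusted p = 0.0016), and the call was stable. Aldh1a7, an aldehyde dehydrogenase, rose by 1.03 ± 0.21 (0.000916 in limma), also a stable call, with 1 treated animal at 10.22 just below vehicle animal 4 at 10.27. These were the 2 called of the 22 measured CAR and PXR targets, and neither Cyp2c37 (-0.51, adjusted p = 0.407) nor Cyp2c54 (0.41, 0.197) passed. Nnmt, which methylates nicotinamide and related pyridines, read 7.24, 8.81, 8.23 and 8.03, then 10.43, 10.10, 9.81 and 10.18. It rose by 2.05 ± 0.46 with no overlap (limma adjusted p = 0.00284) and was stable, from a vehicle level 1.77 below the other strains.

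Of the 15 measured genes of isoniazid metabolism 3 rose and none fell, beside the 1.9% of all genes that rose. Without vehicle animal 2, 2 rose. Nat2, an acetyltransferase of the family that acetylates isoniazid, read 7.96, 8.23, 8.57 and 8.63, then 8.95, 8.98, 9.01 and 9.03. The treated animals lay close together and above all controls, and Nat2 rose by 0.64 ± 0.16 (limma adjusted p = 0.00907), a call not made without vehicle animal 1 (0.0951). Nat1, its paralog, rose by 0.66 ± 0.20 (0.0465 in limma) and was called in 2 of the 8 fits that left out 1 animal. Fmo5, a flavin monooxygenase, read 10.08, 10.63, 10.47 and 10.36, then 11, 11.37, 11.72 and 10.88, and rose by 0.86 ± 0.15 (limma adjusted p = 0.00014), a stable call. Cyp2e1, a P450 linked to isoniazid toxicity, read 13.54 to 13.76 in controls and 13.48 to 13.69 in treated animals, a difference of -0.03 ± 0.06 whose adjusted p in limma was 0.882. Its sign turned under several settings.

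Of 13 measured clock-controlled genes of the evening phase, 4 rose and none fell, beside 1.9% and 0.827% of all genes. Without vehicle animal 2, 4 rose, and 1 rose without isoniazid animal 2. The list comprises the Per and Cry repressors, the Rev-erb receptors and the PAR bZIP factors Dbp, Tef and Hlf, which activate D-box genes. The median effect of the 13 was 0.55, and 10 were above 0, whereas the median of their mean effects in the other strains was -0.0014. Per2 read 3.63, 5.13, 4.19 and 4.67, then 5.75, 6.35, 6.17 and 5.66, and rose by 1.58 ± 0.38 (limma adjusted p = 0.00785). Dbp read 7.12, 8.34, 7.08 and 8.33, then 8.85, 9.64, 9.46 and 9.27, and rose by 1.59 ± 0.44 (0.024 in limma). The 3 probe sets of Per2 ran from 0.27 to 1.58. In both genes no treated animal overlapped a control, but vehicle animals spread by more than 1 log2 unit.

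Usp2, a clock-controlled deubiquitinase, read 7.15, 7.85, 6.99 and 7.20, then 8.46, 8.59, 8.94 and 8.06, and rose by 1.21 ± 0.29 (limma adjusted p = 0.00536). Tef rose by 0.61 ± 0.17 (0.0269). Of the 4, only the call of Usp2 was stable. Per2 was not called without vehicle animal 1 (0.0694) or isoniazid animal 2 (0.0524), and Dbp and Tef were called in 3 of the 8 left-out fits each, with the highest adjusted p without vehicle animal 1 (0.114 and 0.29). Without vehicle animal 4, 5 of the list rose. Ciart (0.99, adjusted p = 0.0554) and Per3 (0.95, 0.0679) also had higher levels in all treated animals, while Nr1d1 (-0.09) and Per1 (-0.01) did not. All 4 were named after their values were seen.

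The morning-phase activator Arntl read 6.47, 6.26, 6.75 and 6.48, then 5.56, 4.91, 5.29 and 5.61. Its groups did not overlap, with a difference of -1.15 ± 0.36, but its limma adjusted p was 0.0601. None of the 5 morning-phase genes was called by limma, 1 of them at an unadjusted p under 0.05, and all 5 had effects below 0. The hour of dosing and of dissection is not given in the sources used here, and its part in these values was not tested.

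Arntl and its partner Clock bind the E-box CACGTG, and the window around the start of Tef is shown because Tef rose and holds it in capitals. Of the 13 evening genes, 11 had a window in the RefSeq table (GRCm38.p6, 300 bases around each gene start), and 4 of these (Per1, Tef, Ciart and Bhlhe41) held CACGTG, which reads the same on both strands, in at least 1 of their windows, as did 8.09% of all genes in the table (7.15% of single windows). Dbp and Usp2 held none there, and Per2 was not among the 11. Only Tef of the 4 with the motif was called. Tef has windows for 2 starts on the plus strand of chromosome 15, at chr15:81802423-81802722 and chr15:81811164-81811463, each with 1 site. They read:
Tef window 1: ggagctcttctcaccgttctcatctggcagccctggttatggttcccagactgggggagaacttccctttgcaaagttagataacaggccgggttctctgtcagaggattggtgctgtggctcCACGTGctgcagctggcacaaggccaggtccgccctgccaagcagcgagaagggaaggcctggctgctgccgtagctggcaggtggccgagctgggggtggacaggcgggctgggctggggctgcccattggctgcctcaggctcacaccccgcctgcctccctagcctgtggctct
Tef window 2: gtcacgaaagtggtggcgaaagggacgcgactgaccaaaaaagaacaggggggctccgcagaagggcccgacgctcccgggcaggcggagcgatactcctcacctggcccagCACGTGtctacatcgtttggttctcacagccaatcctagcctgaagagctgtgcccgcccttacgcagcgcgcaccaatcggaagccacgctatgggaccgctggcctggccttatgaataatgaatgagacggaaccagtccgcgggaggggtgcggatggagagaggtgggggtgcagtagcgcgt
The match describes letters in these windows and is no evidence of binding.

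Cholesterol synthesis genes lay higher in the treated animals. The pathway runs from acetyl-CoA through mevalonate and squalene to cholesterol, under the transcription factor Srebf2. All 20 measured members had effects above 0, with a median of 0.70 against 0.21 in the mean of the other strains and 0.0079 over all genes, and 2 rose by the test. Without vehicle animal 2 the median was 0.56 and the same number passed. Mvk, mevalonate kinase, read 6.96, 6.39, 6.72 and 7.45, then 7.76, 7.96, 8.02 and 7.75, and rose by 1.00 ± 0.18 (limma adjusted p = 0.000195), a stable call. Dhcr7, the last enzyme of one branch, read 7.14, 7.20, 6.93 and 7.87, then 7.97, 8.09, 8.14 and 8.19, and rose by 0.81 ± 0.21 (0.0138). It was not called without vehicle animal 1 (0.0519) or 3 (0.0747).

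Vehicle animal 4 was the outlying control of this pathway. The mean level of the 20 genes was 9.12 in it, 7.63 to 8.11 in the other controls and 8.76 to 9.06 under isoniazid. Without vehicle animal 4, 12 of the 20 rose, and without vehicle animal 1, 1 did. Msmo1 read 8.88, 7.31, 8.06 and 9.73, then 9.50, 10.21, 10.28 and 9.73 (difference 1.43 ± 0.45, adjusted p = 0.0568), and Sqle, squalene epoxidase, 5.54, 4.88, 4.98 and 7.59, then 6.80, 7.29, 6.73 and 6.64 (1.12 ± 0.50, 0.252). Sqle and Cyp51 were named after their values were seen. In vehicle level AKR/J lay above the other strains in Sqle (1.75, adjusted p in limma 0.000173) and Cyp51 (1.66, 4.67e-05).

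Mvk and Mmab, a cobalamin adenosyltransferase, start head to head on chromosome 5 with 242 bases between their starts, so that their windows share 259 of 300 bases. Mmab was named after its values were seen. It read 4.34, 4.80, 4.69 and 5.84, then 6.10, 5.99, 5.77 and 5.88, with 1 treated animal below vehicle animal 4, and rose by 1.02 ± 0.26 (limma adjusted p = 0.0138), and was called in 6 of the 8 left-out fits (0.118 without vehicle animal 1). Its 4 probe sets ran from -0.17 to 1.02. The shared region is shown because it lies between 2 genes that rose. The Mvk window, chr5:114444019-114444318 on the plus strand of GRCm38.p6 (RefSeq), holds the CCAAT box in capitals on either strand (CCAAT, or ATTGG on the other), 5 sites in all. At least 1 such site stood in 37.4% of all 32851 windows and at least 5 in 0.271%.
Mvk window: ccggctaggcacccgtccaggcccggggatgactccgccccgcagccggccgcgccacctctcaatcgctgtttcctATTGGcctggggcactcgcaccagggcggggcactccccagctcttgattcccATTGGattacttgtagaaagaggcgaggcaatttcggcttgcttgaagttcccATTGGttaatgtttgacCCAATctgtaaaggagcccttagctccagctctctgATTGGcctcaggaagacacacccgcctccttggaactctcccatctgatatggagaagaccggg
As above, these are letters and not measured binding.

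In fatty acid and lipid storage the picture was mixed. Thrsp, a regulator of lipogenesis, read 7.04, 7.58, 7.64 and 9.09, then 9.30, 10.56, 11 and 9.62. It rose by 2.28 ± 0.52 (limma adjusted p = 0.00359), a stable call, although 3 probe sets named it and their effects ran from 0.11 to 2.28. Of the 20 measured fatty acid synthesis genes, Thrsp rose and Scd2 fell, the latter with vehicle animal 2 at 7.04 and the other controls at 4.03 to 4.63 (adjusted p = 0.691 without it). Without vehicle animal 4, 5 of the list rose. Fasn, fatty acid synthase, read 7.14, 7.06, 7.07 and 8.16, then 7.86, 8.46, 8.19 and 7.52, a difference of 0.65 ± 0.25 that did not pass (0.151). Scd1, the stearoyl-CoA desaturase, read 10.16, 11.38, 9.84 and 12.75, then 10.47, 10.39, 10.35 and 9.91. The controls spread widely, and the difference of -0.75 ± 0.45 did not pass (0.467), beside a mean effect of -1.52 in the other strains.

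Nrg4, a growth factor secreted by liver and fat, read 3.75, 3.89, 3.88 and 3.73, then 4.71, 5.84, 5.65 and 5.23, and rose by 1.55 ± 0.35 (limma adjusted p = 0.00326), a stable call. All its control values lay below the median of their arrays, so the size of this rise is uncertain. Apoc2, the activator of lipoprotein lipase, rose by 0.81 ± 0.13 (1.37e-05), with controls at 10.80 to 11.14 and treated animals at 11.63 to 12.08, and was stable. Apoa4, an apolipoprotein, rose by 1.05 ± 0.25 (0.00785) but was not called without isoniazid animal 2 (0.123). Cidec, a lipid droplet protein, read 4.43, 4.65, 4.54 and 3.86, then 5.50, 6.23, 5.11 and 5.46. Its rise of 1.20 ± 0.37 (0.0467) lost the call in each of the 8 left-out fits (adjusted p 0.0518 to 0.224). Fitm1, another droplet gene, rose by 0.86 ± 0.22 (0.0103), without the call when vehicle animal 2 (0.141) or isoniazid animal 4 (0.0538) was left out. The lipid droplet list gave 2 rises among 25, 1 without vehicle animal 2 and 0 without isoniazid animal 4, beside 1.9% of all genes. Plin2, which coats droplets, was at 12.27 to 12.59 in controls and 12.05 to 12.53 in treated animals (-0.04 ± 0.21).

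Of 27 measured PPAR alpha targets and fatty acid oxidation genes only Vnn1, a pantetheinase, was called. It read 10.70, 9.75, 10.29 and 10.47, then 8.69, 9.13, 9.09 and 8.73, and fell by 1.39 on the log2 scale (SE 0.35, limma adjusted p = 0.0103), but not without vehicle animal 1 (0.0529). Acot1 and Acot2, acyl-CoA thioesterases, were lower in all treated than in all control animals, by -1.25 ± 0.40 (0.0633) and -1.14 ± 0.38 (0.0737), near their means of -1.17 and -1.10 in the other strains. Cpt1a, the carnitine transferase of mitochondrial fatty acid import, differed by 0.43 ± 0.13 (0.0566) with every treated animal above every control. The fatty acid transporter Cd36 (0.06 ± 0.30, 0.959) and the hormone Fgf21 (0.07 ± 0.49, 0.97) overlapped between groups, and their signs turned when single animals were left out. Fabp5, a fatty acid binding protein, read 9.54, 9.55, 9.77 and 8.67, then 8.23, 8.00, 7.18 and 7.01, and fell by 1.78 on the log2 scale (SE 0.52, 0.0365). That call was made in 2 of the 8 left-out fits, with adjusted p up to 0.14 without isoniazid animal 4.

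In the list of amino acid breakdown and urea cycle enzymes, 7 of 28 measured genes rose, 1 fell and 20 were not called, with a median effect of 0.30 against 0.0074 in the other strains' means. Cps1, the entry enzyme of the urea cycle, read 12.80, 13.12, 12.96 and 12.87, then 13.25, 13.38, 13.36 and 13.34, and rose by 0.39 ± 0.09 (limma adjusted p = 0.0047). Hpd of tyrosine breakdown rose by 0.30 ± 0.07 (0.00282), also without overlap. Both calls were stable. The list held 7 rises in the fullest left-out fit, 6 without vehicle animal 2 and 2 without isoniazid animal 2. Over all genes 1.9% rose and 0.827% fell.

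Enzymes that use vitamin B6 gave 6 rises and 1 fall among 26 measured, beside 1.9% and 0.827% of all genes. The list gave 5 rises without vehicle animal 2 and 2 without isoniazid animal 2. Gpt2, a mitochondrial alanine transaminase, read 10.43, 10.45, 10.49 and 10.10, then 11.26, 10.89, 11.01 and 11.12, and rose by 0.70 ± 0.16 (limma adjusted p = 0.00378). Agxt2, a glyoxylate and dimethylarginine transaminase, rose by 0.67 ± 0.15 (0.00378). Both were stable, and Oat, ornithine transaminase, rose by 0.60 ± 0.15 (0.00862) except without isoniazid animal 2 (0.0772). Alas1, which starts heme synthesis, rose by 1.16 ± 0.32 (0.0228), with controls at 10.44 to 11.10 and treated animals at 11.63 to 12.36, and was called in 4 of the 8 left-out fits. Got1, the cytosolic aspartate transaminase, did not pass (0.75 ± 0.38, 0.336), beside a mean of 0.64 in the other strains. Csad, the decarboxylase of taurine synthesis, was the fall, by 1.36 on the log2 scale (SE 0.41, 0.0399), beside a mean of -1.39 in the other strains. Its call was made in 2 of the 8 left-out fits (highest adjusted p 0.163, without isoniazid animal 3).

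One-carbon metabolism gave 6 rises and no fall among 18 genes, beside 1.9% and 0.827% of all genes. There were 3 rises without vehicle animal 2 and 2 without isoniazid animal 4. Gnmt, which consumes S-adenosylmethionine, read 12.99, 13.21, 13.05 and 13.20, then 13.49, 13.58, 13.64 and 13.68. It rose by 0.48 ± 0.08 (limma adjusted p = 7.68e-06), a small step that exceeded the spread of both groups. Bhmt2, a methionine synthesising methyltransferase, rose by 0.63 ± 0.10 (1.37e-05), with controls at 11.35 to 11.55 and treated animals at 11.84 to 12.18. Both were stable, whereas Bhmt (0.49, 0.0338) and Shmt2 (0.47, 0.0492) were called in 3 and 1 of the 8 left-out fits.

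Of 32 measured genes of oxidative phosphorylation, 9 rose, none fell and 31 had effects above 0, with a median of 0.22 against 0.11 in the other strains. Atp5g1, a subunit of the ATP synthase ring, rose by 0.46 ± 0.09 (limma adjusted p = 0.000626) and Cycs, cytochrome c, by 0.54 ± 0.12 (0.00256), both stable, and both with 1 treated animal inside the range of the controls. The count was 7 without vehicle animal 2, 2 without vehicle animal 1 and 14 without isoniazid animal 1. In glucose metabolism 3 of 20 rose, beside 1.9% of all genes, with 2 rises without vehicle animal 2 and 1 without isoniazid animal 2. Slc37a4, the glucose-6-phosphate transporter of the endoplasmic reticulum, read 9.84, 10.47, 10.42 and 10.13, then 10.82, 11.14, 10.98 and 10.85, and rose by 0.73 ± 0.14 (0.000434), a stable call.

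**Figure D4:**
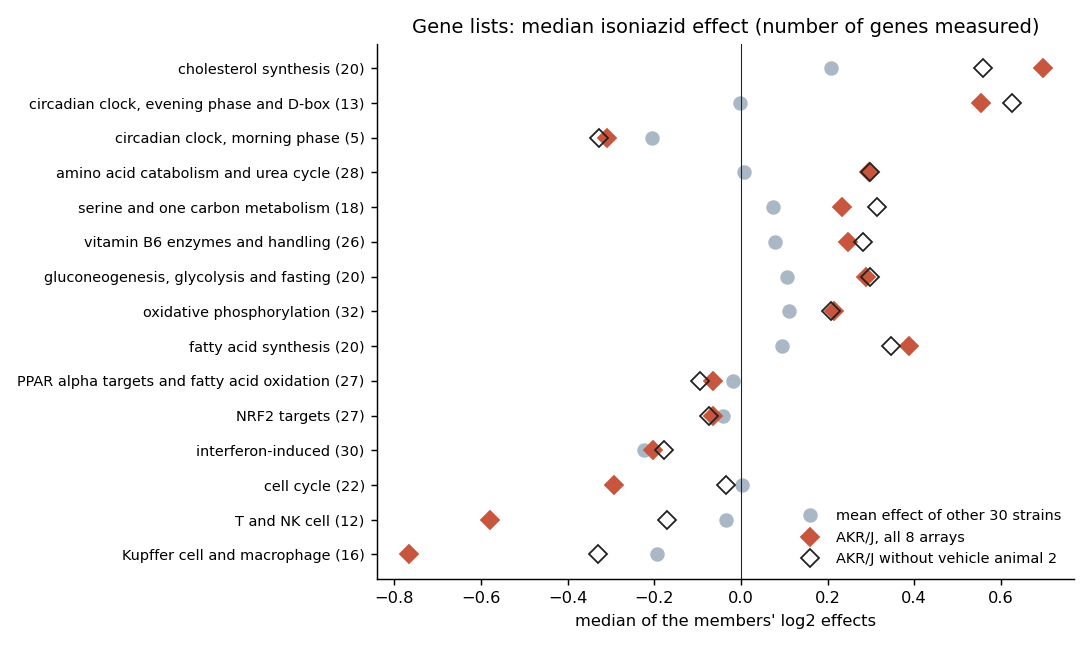
Median log2 effect (horizontal axis, isoniazid minus vehicle) of the members of 15 gene lists, with the number of genes measured. Filled diamonds are AKR/J with all 8 arrays, open diamonds AKR/J without vehicle animal 2, and circles the mean effects of the other 30 strains. Cholesterol synthesis (0.70) and the evening clock (0.55) are highest in AKR/J, and the macrophage, T and NK cell and cell cycle medians move toward 0 without vehicle animal 2.

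The medians of the macrophage, T and NK cell and cell cycle lists lay nearer to 0 without vehicle animal 2. Of 16 macrophage markers 2 fell, Csf1r and Lyz2, with a median of -0.77, and without that animal none did (limma, 1 lower at an unadjusted p under 0.05) and the median was -0.33. Of 12 T and NK cell markers 3 fell and none without it (limma, 0 at an unadjusted p under 0.05), and of 22 cell cycle genes 3 fell and none without it (limma, 2 higher and 0 lower unadjusted). With vehicle animal 2 kept, 5 of the T and NK cell markers fell without vehicle animal 1, and 7 of the cell cycle genes without vehicle animal 4. Cd8b1 and Mki67 were among them (limma adjusted p = 0.00681 and 0.00429), against 0.736 and 0.811 without vehicle animal 2. Csf1r lay at 9.57 to 9.63 in the other 3 controls and 8.79 to 9.23 in treated animals. Without vehicle animal 2 its limma adjusted p was 0.332, and that of Lyz2 was 0.358. Among the 14 genes that fell most without overlap, Mcm6, Ms4a4b, Tmsb10, Rac2 and S100a4 lost the call without vehicle animal 2 (adjusted p 0.711, 0.227, 0.296, 0.659 and 0.0697), as did Fabp5 (0.0875) and Peg3 (0.0771), 7 of the 14 in all.

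In bile acid metabolism 2 of 25 genes rose and 1 fell, beside 1.9% and 0.827% of all genes. Without vehicle animal 1 or 2 no gene of the list rose. Cyp2c70, which makes the muricholic acids of mice, read 11.25, 11.43, 11.52 and 11.42, then 10.33, 9.53, 10.53 and 10.09. It fell by 1.29 on the log2 scale (SE 0.248, limma adjusted p = 0.000414) with no overlap, and was stable. Nr1h4, the bile acid receptor FXR, rose by 0.49 ± 0.14 (0.0384) and was called in 2 of the 8 left-out fits. Cyp7a1, the first and rate-limiting enzyme of the pathway, read 9.98, 8.92, 8.91 and 9.41, then 8.54, 10.25, 9.39 and 10.58, with no call (0.38 ± 0.43, 0.75).

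Slc40a1, the iron exporter ferroportin, read 11.16, 11.77, 11.48 and 11.44, then 10.67, 10.63, 10.83 and 10.87. It fell by 0.72 on the log2 scale (SE 0.152, limma adjusted p = 0.00161) and Mbl2, mannose-binding lectin, by 0.64 (SE 0.145, 0.00378), both without overlap and both stable. They were the only genes called in the lists of 15 iron and 27 complement and coagulation genes. Gclc, the catalytic subunit of glutathione synthesis, fell by 0.63 (SE 0.181, 0.0308) as the 1 called of 27 NRF2 targets, and in 3 of the 8 left-out fits. None of 30 interferon-induced genes was called by limma (1 higher and 6 lower at an unadjusted p under 0.05), with a median of -0.20 beside -0.22 in the other strains. Likewise none of 29 acute phase genes (0 higher, 1 lower unadjusted), 18 p53 targets (1 and 2) and 13 heat shock genes (0 and 0) passed in limma. The integrated stress response list gave 1 rise among 25, Shmt2, and protein folding 1 among 26, P4hb (0.43 ± 0.11, 0.00997), which was not called without vehicle animal 2 (0.0557) or isoniazid animal 2 (0.154).

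Several genes outside the lists rose. Tectb, a tectorin best known from the inner ear, read 2.39, 3.06, 2.51 and 2.70, then 3.68, 5.0, 4.48 and 5.13. All 4 controls lay below the median of their arrays (3.99 or more on all 8), where RMA values hold little signal, and the filter on dim genes left Tectb out, so its size of change is uncertain. All treated animals were above all controls, and the fitted difference was 1.91 ± 0.26 (limma adjusted p = 7.72e-08), a stable call. Ociad2 read 5.54, 6.01, 5.97 and 6.02, then 7.15, 7.03, 7.21 and 7.64, and rose by 1.37 ± 0.22 (1.37e-05), and Prxl2b, a prostaglandin synthase of the peroxiredoxin-like family, read 6.64, 7.72, 7.66 and 8.06, then 8.62, 8.80, 8.89 and 8.73, and rose by 1.24 ± 0.25 (0.000806). Both were stable and without overlap. Pgm3 of the hexosamine pathway rose by 1.11 ± 0.26 (0.00536), close to the mean of 0.89 in the other strains. Lad1 (1.37 ± 0.29) and 2010003K11Rik (1.35 ± 0.33) rose as well, but Lad1 was not called without vehicle animal 2 (0.0695) and 2010003K11Rik not without isoniazid animal 2 (0.0643). Among the falls, Rad51b (-1.32), Dnase2a (-1.33) and Peg3 (-1.15) were called in 6, 3 and 3 of the 8 left-out fits.

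Most of the AKR/J changes ran the same way as in the other strains. Of the 344 genes that rose, 323 had a mean effect above 0 in the other 30 strains, and of the 150 that fell, 116 had one below 0. Across the 18146 genes, which are not independent, the AKR/J effect and the mean effect of the others had r = 0.43, or 0.38 without vehicle animal 2. The same figure for the 31 strains in turn ran from 0.14 to 0.58, with AKR/J in rank 12. Of the 24 genes that earlier work on these data found most changed over strains, 9 rose and 2 fell in AKR/J, with 4 rises when isoniazid animal 2 was left out. That list was chosen partly on these 8 arrays, so its count is no independent evidence.

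The AKR/J effect differed from the mean effect of the other 30 strains in 91 genes (0.501% of those tested, limma adjusted p under 0.05), 44 more positive (0.242%) and 47 more negative (0.259%). In 40 of the 47 vehicle animal 2 was the highest of the 8 AKR/J animals. Without that animal 23 genes were called (0.127%), 19 more positive (0.105%) and 4 more negative (0.022%), and 21 of them belonged to the 91. The count was 228 without vehicle animal 4 and 55, 58, 47 and 50 without isoniazid animals 1 to 4, and 4 without vehicle animal 2 and the narrow-spread arrays together. In all 8 left-out fits and with all arrays, 5 genes were called: Cyp2d9, Tectb, Ociad2, Prxl2b and Cyp3a16. Without vehicle animal 2 and the narrow-spread arrays together, only 1 more positive gene was called, Tectb. There Cyp2d9, Ociad2 and Prxl2b lost the call (highest limma adjusted p over all settings 0.128, 0.364 and 0.128).

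For Cyp2d9 the difference was 2.16 ± 0.39 (limma adjusted p = 0.000869), and AKR/J was the highest of 31 strains, with the next, MRL/MpJ, at 1.47. The AKR/J vehicle level of Cyp2d9, given above as below the mean of the other strains, enters this difference. For Tectb the difference was 1.79 ± 0.26 (2.25e-06), with the next strain, PL/J, at 0.69, but its vehicle means, 2.67 in AKR/J and 2.55 in the other strains, lie at the low end of the scale, so that neither size nor rank is firm. Prxl2b had a mean effect of -0.17 elsewhere and a difference of 1.41 ± 0.26 (0.000869), with NOD/LtJ next at 0.40, and Ociad2 differed by 1.12 ± 0.23 (0.00297). Cyp3a16 differed by -4.11 ± 0.83 (0.00297). AKR/J had the most negative effect, yet BTBR T+ tf/J was at -4.22 and C3H/HeJ at 1.59, so this gene varied widely among strains. As given above, AKR/J started from a far higher vehicle level of Cyp3a16 than the mean of the other strains. Over all arrays its mean was 4.48, at the limit of the filter on dim genes (4.47), where little room is left to fall. Neither the size of this difference nor the rank is firm.

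Other genes differed in the mean but less stably. Thrsp was 2.12 ± 0.53 above the mean effect of the others (limma adjusted p = 0.0275), with C57BLKS/J at 2.17 and BALB/cJ at -2.53, and Nnmt 1.78 ± 0.46 (0.0401), with C3H/HeJ at 1.95. They were called in 3 and 2 of the 8 left-out fits (highest adjusted p 0.166 and 0.215). Usp2 differed by 1.29 ± 0.29 (0.00884), Fmo5 by 0.73 ± 0.15 (0.0045), Mvk by 0.83 ± 0.19 (0.00884) and Slc37a4 by 0.61 ± 0.14 (0.0172). All but Mvk (0.158) were also called without vehicle animal 2, and Usp2 was not without isoniazid animal 3 (0.0822). Nat8 (1.26 ± 0.26), Asic5 (1.05 ± 0.27) and Morn2 (0.99 ± 0.25) were among the 10 highest, but not called without vehicle animal 2 (0.0587, 0.118 and 0.176). Of the 10 most negative differences, the 9 other than Cyp3a16 (Rag1, Mcm6, Gzma, Sh2d1a, Cd3g, Mcm5, Bcl11b, Myb and Ms4a4b) lost the call without it, and the lowest of their adjusted p-values was then 0.328.

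A stricter comparison took the 31 strain effects as single values and asked whether AKR/J lay outside the spread of the other 30. It called 23 genes (0.127%), 3 more positive (0.0165%) and 20 more negative (0.11%), and vehicle animal 2 was the highest AKR/J animal in 19 of the 20. Without it 3 were called (0.0165%), 2 more positive (0.011%) and 1 more negative (0.00551%): Tectb (limma adjusted p = 0.00128), Cyp2d9 (0.0122) and, in the negative direction, Fthl17a (0.00473), a ferritin-like gene named here because the count is small. The filter on dim genes leaves out Tectb and Fthl17a but not Cyp2d9. Prxl2b was called only with that animal (0.0469, and 0.124 without it). The count was 68, 58 and 84 without vehicle animals 1, 3 and 4, and 66, 53 and 71 of these were more negative, with vehicle animal 2 kept.

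**Figure D5:**
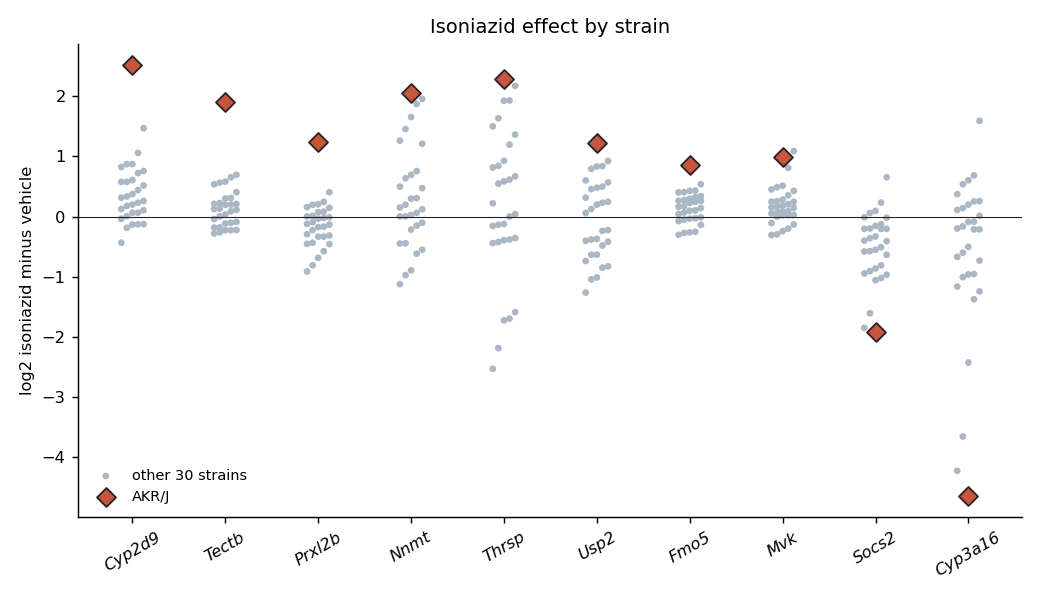
Isoniazid effect by strain (vertical axis, log2 isoniazid minus vehicle) for 10 genes. Each grey point is 1 of the other 30 strains and the red diamond is AKR/J. Cyp2d9, Tectb and Prxl2b in AKR/J lie above the other strains with a gap, while Nnmt, Thrsp, Mvk, Socs2 and Cyp3a16 have another strain close by.

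In untreated liver AKR/J differed from the mean vehicle level of the other 30 strains in 1176 genes (6.48%), 557 higher (3.07%) and 619 lower (3.41%). Without vehicle animal 2, 883 were called (4.87%), 300 higher (1.65%) and 583 lower (3.21%), 714 of them among the 1176. Highest above the others were Cyp3a16 (3.98), Cyp46a1, a cholesterol hydroxylase (3.67), Nlrp12 (2.63), Ctse, cathepsin E (2.52), and Snrnp25 (2.08). Lowest were Ugt3a2, a glycosyltransferase (-7.02), Card6 (-2.70), 9130409I23Rik (-2.66), Nox4 (-2.43) and C9, a complement component (-2.31). A sequence variant under a probe can set such a level, which was not tested. The vehicle levels and the isoniazid effects share the 4 AKR/J control animals, so no relation between them was computed.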

How the data were processed

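Expression was measured on Affymetrix mouse arrays, 1 per animal, 235 in all. The deposited table holds log2 values of 44721 probe sets, which the authors made with Affymetrix Power Tools and RMA, per the submitters' processing notes. Their versions were not given in the sources used here. Normalization by RMA is shared across arrays, so an unusual array can move others slightly, and it compresses changes near the bottom of the scale. Of the probe sets, 34717 carried 1 gene symbol, 872 several and 9072 none, and 60 were controls. Of those with 1 symbol, 34514 were matched by Entrez identifier to a table of GRCm38.p6. Probe sets with 1 symbol gave 18146 genes. For the 8949 genes with several probe sets the one with the highest mean was used.

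limma 3.58.1 in R 4.3.3 fitted the 62 strain by treatment groups over all 235 arrays (lmFit and eBayes, 173 residual degrees of freedom), so AKR/J borrowed the spread of the other groups. Contrasts were AKR/J isoniazid minus vehicle, that effect minus the mean effect of the other 30 strains, and the AKR/J vehicle level minus the mean of theirs. A further limma fit took the 31 strain effects as values. All tests were two-sided, with Benjamini-Hochberg adjustment over the 18146 genes and a call at an adjusted p under 0.05. The labels number animals but give no cage or batch. The p-values of the contrasts measure the spread between animals within the 62 groups, pooled over all strains, and not that of the AKR/J animals alone. The SE given with each effect rests on the same pooled spread. On simulated data for the AKR/J contrast over 18146 genes, 85 of 100 genes changed 2-fold were recovered. Of those changed 4-fold, 100 of 100 were recovered, and there were 7 false calls. These figures describe the simulated data. How far they hold for the measured arrays, with their outlying animals and narrow-spread arrays, was not tested.

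Named genes were drawn from the 14 highest and 14 lowest called changes without overlap between groups, the 10 highest and 10 lowest differences from other strains, the 5 highest and 5 lowest vehicle levels, up to 4 members of each list by the statistic of the effect and up to 2 by that of the difference, and 18 genes of drug and lipid metabolism. Others are said to be chosen after their values were seen. The members and the lists were chosen with earlier results of these data known. Alternatives were the probe set rule, dim genes left out, array centring, a trended robust fit, scan date, narrow-spread arrays, a replicate block, the 8 arrays alone and leaving out each animal. Leaving out vehicle animal 2 together with the narrow-spread arrays was chosen after seeing the data.

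Same-numbered treated and control animals are different animals. The deviations of same-numbered AKR/J animals from their group means correlated across genes at 0.060, 0.030, 0.0053 and 0.26 for numbers 1 to 4, so the numbers were not taken to pair them. Promoter windows came from a RefSeq table of GRCm38.p6.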

Additional observations from a re-analysis of the deposited data

Results flagged for a closer look

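Within the groups of 4 AKR/J animals, 126 gene and group pairs were tested for 1 animal far from the other 3, and 14 stood out. Chance gives about 1 in 20 groups, but many of these genes were named for effects that vehicle animal 2 itself set, so the count is a description and not a test. In 11 of them the animal was vehicle animal 2 on the high side: Mcm6 at 8.21, Ms4a4b at 5.85, Tmsb10 at 11.35, Rac2 at 8.33, S100a4 at 5.01, Rag1 at 9.87, Gzma at 11.48, Sh2d1a at 7.66, Cd3g at 8.14, Mcm5 at 7.73 and Myb at 8.14. These are genes of lymphocytes, of DNA replication and of motile blood cells. In the remaining 3, Ociad2 was low in vehicle animal 1 (5.54, the next at 5.97), Plin2 was low in isoniazid animal 3 (12.05, the next at 12.49) and Fasn was high in vehicle animal 4 (8.16, the next at 7.14).

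The AKR/J effect differed from the mean effect of the other strains by the test of that difference in these named genes. More positive were Cyp2d9 by 2.16, Thrsp by 2.12, Tectb by 1.79, Nnmt by 1.78, Prxl2b by 1.41, Usp2 by 1.29, Nat8 by 1.26, Ociad2 by 1.12, Asic5 by 1.05 and Morn2 by 0.99. More negative was Cyp3a16 at -4.11. The other 9, Rag1 at -2.13, Mcm6 at -1.86, Gzma at -1.75, Sh2d1a at -1.42, Cd3g at -1.42, Mcm5 at -1.35, Bcl11b at -1.34, Myb at -1.29 and Ms4a4b at -1.20, had vehicle animal 2 as the highest of the 8 animals. Their part in other results was not tested.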

How the results depend on the processing

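The isoniazid effect in AKR/J gave 494 called genes, 194 to 731 when 1 animal was left out, 746 without the narrow-spread arrays, 121 without these and vehicle animal 2, 14 from the 8 arrays alone, 262 on the shared scan date and 318 with a 1.5-fold minimum. The difference from the other 30 strains gave 91, 23 to 228 with 1 animal left out, 159 without the narrow-spread arrays, 4 without these and vehicle animal 2, 57 against the 13 strains with steatosis, 112 against the other 17 without it, 76 against the strains without deaths and 23 with strain effects as replicates. The vehicle level gave 1176, 811 to 1287 with 1 animal left out, 533 without vehicle animal 2 and the narrow-spread arrays, and 515 with a 1.5-fold minimum. Against the spread of strains the count was 23, 3 to 84 with 1 animal left out, 5 without dim genes, 80 without the narrow-spread arrays and 6 without these and vehicle animal 2. Apart from the narrow-spread arrays, whose removal also changes the shared spread, the cause was not tested.

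With the animal number as a replicate block, the counts were 410, 77 and 1086 for the effect, the difference and the vehicle level. Only number 4 correlated best with its own number, so the pairing has no support in the labels or the data. 

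The sign of 5 genes turned. With 1 animal left out, the effect of Myb ran from -1.75 to 0.10 (its difference from other strains from -1.77 to 0.084), of Plin2 from -0.092 to 0.075, of Cd36 from -0.19 to 0.19, of Cyp2e1 from -0.062 to 0.015 and of Fgf21 from -0.25 to 0.31. Myb became 0.10 (difference from other strains 0.084) without vehicle animal 2, and 0.080 (0.057) without it and the narrow-spread arrays. Plin2 became 0.0053 with arrays centred, 0.013 without vehicle animal 2, 0.075 without isoniazid animal 3 and 0.012 without vehicle animal 2 and the narrow-spread arrays. Cd36 became -0.19 without vehicle animal 3 and -0.042 without isoniazid animal 4. Cyp2e1 became 0.015 with arrays centred, 0.0096 without the narrow-spread arrays or vehicle animal 1, 0.015 without isoniazid animal 4, 0.022 without vehicle animal 2 and the narrow-spread arrays and 0.055 on the shared scan date. Fgf21 became -0.25 without vehicle animal 2, -0.044 without isoniazid animal 3 or 4, -0.24 without vehicle animal 2 and the narrow-spread arrays and -0.0069 on the shared scan date. Levels near the bottom of the scale, such as Tectb in controls, carry little signal over background.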

Other observations

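Several marker lists of other liver cells had medians below 0 in AKR/J, and none of their members was called with all arrays. All 13 measured stellate cell and fibroblast markers had effects below 0, with a median of -0.26, or -0.24 without vehicle animal 2. None was called by limma (2 lower at an unadjusted p under 0.05). Col3a1, a collagen, was called lower without vehicle animal 1 (limma adjusted p = 0.00873) or 3 (0.0221). Without vehicle animal 2 Col3a1 was not called (0.569), and it read 9.85 in that animal and at most 7.55 in the other AKR/J animals. Of 14 sinusoidal endothelial markers 12 were below 0 with a median of -0.29 (-0.25 without vehicle animal 2), and none was called by limma (2 lower unadjusted). All 8 B and plasma cell markers and all 8 neutrophil markers were below 0 as well (medians -0.27 and -0.17), with none called by limma and 0 at an unadjusted p under 0.05. The medians of the same lists in the other strains were -0.066, -0.058, -0.059 and -0.044. The 8 bile duct markers had a median of -0.079, with none called by limma (1 higher and 0 lower unadjusted). Hepatocyte markers had a median of 0.0010.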
